A study of Homo sapiens with 4 samples.

Results

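Acetylation of lysine 27 on histone H3 (H3K27ac) marks the chromatin of active promoters and enhancers. The regions described here are stretches of H3K27ac chromatin at least 2000 and under 8000 bases wide that overlap the start of exactly 1 gene. They are called mid-width promoter regions. They were chosen by their width and by a distance of 0 to a single gene start, both of which come from where the authors found enriched chromatin. This gave 6543 of the 91107 distinct regions of the authors' deposited table, or 7.18%, each at the start of a different gene.

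The samples were A375 cells, an established human melanoma line, grown in DMEM with serum. Per the labels, 2 libraries came from cells given 1 mM octanoate, a medium-chain fatty acid, for 48 hours, and 2 from cells given the vehicle isopropanol for the same time. All 4 libraries were made by chromatin immunoprecipitation with the same H3K27ac antibody. No label says that the 2 libraries of a group came from separate cultures, so the authors' p-values measure only the spread between these libraries, which may be technical.

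The authors' deposited table gives 1 comparison, and lists for each region its p-values, its mean level and its log2 fold change with an error. It holds no value per library, so the spread between replicates cannot be shown, and the depth of each library is unknown. Its header does not name the numerator of the fold change, so changes are given as positive or negative. A call is a region with a deposited adjusted p-value under 0.05. Regions are not replicates and share the 4 libraries, so differences between groups of regions are described and were not tested. In bulk chromatin, more cells carrying the mark and more mark per cell cannot be told apart.

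At an active promoter, acetylated nucleosomes flank the nucleosome-poor start site and extend into the first part of the transcribed gene. Many such promoters lie in CpG islands, where the dinucleotide CG is not depleted as it is in most of the genome. Genes used in nearly all cells tend to have CpG-rich promoters, and many tissue-restricted or inducible genes have CpG-poor ones. Octanoate is taken up without the carnitine shuttle that long-chain fatty acids need, and its oxidation in mitochondria yields acetyl-CoA, the donor of acetyl groups for histones.

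The sequences below are the 250 bases before the start of 10 genes with a mid-width region, from the RefSeq promoter table (GRCh38.p14), 5′ to 3′ on the strand of the gene. Capitals mark each CG. UNC13A, HES7 and PLIN4 are shown because they are 3 of the 5 members with the smallest p-values. The next 5 were chosen among called members with a RefSeq start inside, by the ratio of observed to expected CpG. CSF2, CHRNA9 and IGFN1 had the lowest ratios, and KDM7A and XBP1 the highest. This ratio is not the number of CG pairs. PRR4 and B3GALT2 had the most negative scores and were not called. The windows lie at chr19:17688355-17688604 (minus strand) for UNC13A, chr17:8124107-8124356 (minus) for HES7, chr19:4518487-4518736 (minus) for PLIN4, chr5:132073539-132073788 (plus) for CSF2, chr4:40335083-40335332 (plus) for CHRNA9 and chr1:201190574-201190823 (plus) for IGFN1. Those of the other 4 are chr7:140176984-140177233 (minus) for KDM7A, chr22:28800570-28800819 (minus) for XBP1, chr12:10849476-10849725 (minus) for PRR4 and chr1:193186614-193186863 (minus) for B3GALT2.
UNC13A: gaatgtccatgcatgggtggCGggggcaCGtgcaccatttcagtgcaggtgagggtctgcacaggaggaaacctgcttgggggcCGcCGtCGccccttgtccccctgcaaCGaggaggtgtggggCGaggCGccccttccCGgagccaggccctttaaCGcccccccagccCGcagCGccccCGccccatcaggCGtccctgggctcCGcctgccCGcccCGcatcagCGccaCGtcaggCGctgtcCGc
HES7: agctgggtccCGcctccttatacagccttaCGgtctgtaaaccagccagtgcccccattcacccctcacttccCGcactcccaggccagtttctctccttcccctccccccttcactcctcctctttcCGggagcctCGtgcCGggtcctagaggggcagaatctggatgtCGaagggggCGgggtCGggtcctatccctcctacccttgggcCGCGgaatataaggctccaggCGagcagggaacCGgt
PLIN4: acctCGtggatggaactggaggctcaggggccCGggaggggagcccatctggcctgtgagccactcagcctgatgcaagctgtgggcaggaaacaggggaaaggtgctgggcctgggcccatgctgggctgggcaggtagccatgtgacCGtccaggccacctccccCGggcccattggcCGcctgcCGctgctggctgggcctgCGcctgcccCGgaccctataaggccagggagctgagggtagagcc
CSF2: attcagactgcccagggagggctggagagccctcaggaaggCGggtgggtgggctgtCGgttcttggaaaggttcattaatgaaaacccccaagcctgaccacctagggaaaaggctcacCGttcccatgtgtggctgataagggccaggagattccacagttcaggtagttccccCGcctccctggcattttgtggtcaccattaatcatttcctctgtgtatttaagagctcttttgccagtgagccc
CHRNA9: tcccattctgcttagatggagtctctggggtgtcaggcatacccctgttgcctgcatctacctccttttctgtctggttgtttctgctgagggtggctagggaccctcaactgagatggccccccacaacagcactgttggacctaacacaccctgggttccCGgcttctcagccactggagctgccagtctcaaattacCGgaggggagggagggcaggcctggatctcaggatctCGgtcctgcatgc
IGFN1: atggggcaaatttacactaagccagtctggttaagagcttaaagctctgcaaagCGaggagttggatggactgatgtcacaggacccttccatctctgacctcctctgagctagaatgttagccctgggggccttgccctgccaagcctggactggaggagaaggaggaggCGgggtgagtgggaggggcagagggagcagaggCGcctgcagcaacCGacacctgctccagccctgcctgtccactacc
KDM7A: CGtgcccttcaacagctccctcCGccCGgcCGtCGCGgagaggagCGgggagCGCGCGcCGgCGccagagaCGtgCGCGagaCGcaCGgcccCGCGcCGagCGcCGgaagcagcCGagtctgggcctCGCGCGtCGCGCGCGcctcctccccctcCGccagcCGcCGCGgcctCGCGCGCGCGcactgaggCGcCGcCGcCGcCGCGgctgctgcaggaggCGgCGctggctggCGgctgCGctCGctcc
XBP1: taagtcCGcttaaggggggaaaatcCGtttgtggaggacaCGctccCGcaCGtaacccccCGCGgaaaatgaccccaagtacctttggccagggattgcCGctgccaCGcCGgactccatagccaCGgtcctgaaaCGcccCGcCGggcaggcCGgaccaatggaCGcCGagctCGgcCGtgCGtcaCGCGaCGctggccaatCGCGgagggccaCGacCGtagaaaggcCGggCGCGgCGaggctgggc
PRR4: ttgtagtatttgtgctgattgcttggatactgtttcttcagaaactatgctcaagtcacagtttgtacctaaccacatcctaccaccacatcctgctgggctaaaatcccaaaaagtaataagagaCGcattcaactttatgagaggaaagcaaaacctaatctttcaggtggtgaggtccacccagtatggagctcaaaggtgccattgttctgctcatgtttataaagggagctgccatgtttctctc
B3GALT2: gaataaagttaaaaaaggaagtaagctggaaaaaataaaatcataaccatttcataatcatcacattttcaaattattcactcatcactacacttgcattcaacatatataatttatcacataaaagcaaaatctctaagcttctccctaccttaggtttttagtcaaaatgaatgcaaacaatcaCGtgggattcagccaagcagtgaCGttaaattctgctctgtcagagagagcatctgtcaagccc
The number of CG pairs in these 250 bases was 50 at KDM7A, 31 at XBP1, 21 at UNC13A, 13 at HES7, 8 at PLIN4, 4 at CSF2 and at IGFN1, 3 at CHRNA9, 2 at B3GALT2 and 1 at PRR4.

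The reading of the distance column was checked against RefSeq starts. Among lines at distance 0 whose gene has 1 RefSeq start, 96.4% (6802 of 7057) held that start inside the region. Among lines at another distance 0.959% did, although 48.3% of these overlapped the body of the gene. A distance of 0 therefore marks overlap with a start and not with the gene body. The RefSeq promoter table had a start inside the region for 5278 members, 80.7% of all. It had no start for 1144 members under their current or older symbol, and a start only outside the region for 121.

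Mid-width regions were placed asymmetrically around the start. The median member with a RefSeq start inside reached 1038.5 bases upstream (quartiles 750 and 1486.75) and 2303.5 bases into the gene (quartiles 1698 and 3215.75), counted from the most upstream start inside it. The part inside the gene was the longer one in 86.9% of members (4589 of 5278). It made up a median of 69.3% of the width, against 61.0% in 1516 narrower single-gene regions and 72.5% in 434 wider ones. Where only 1 RefSeq start lay inside, 86.1% of 4239 members were longer on the gene side. Most of the added width lay downstream, since the median upstream reach was 838 bases in members under 3000 bases and 2108.5 in those of 7000 or more, while the downstream reach was 1617 and 5341.5 bases.

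**Figure D1:**
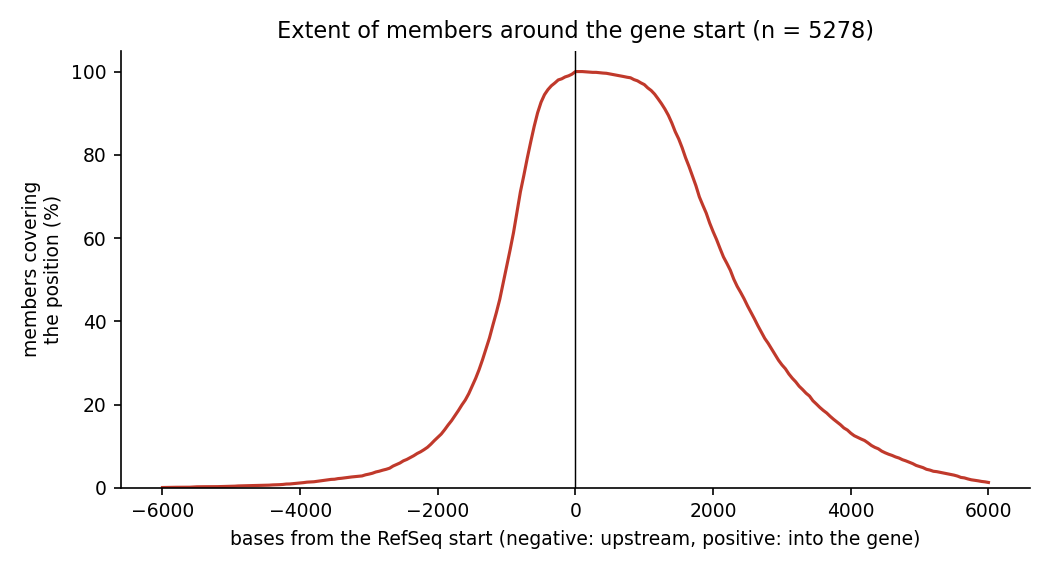
Share of the 5278 members with a RefSeq start inside that cover each position, in percent, against the distance from that start in bases. The curve falls off faster upstream of the start than inside the gene, with median reaches of 1038.5 and 2303.5 bases.

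The level and the width of members went together, which follows in part from how they were chosen, since a wider region collects more reads. The mean level of members from the authors' deposited table ran from 1.25 to 369 normalized counts, with a median of 91.1 (quartiles 66.5 and 127). The Spearman correlation of width and level was 0.80 across the 6543 members, as a description of regions that share the same libraries. Median levels were 27.4 for the 2179 narrower single-gene regions and 295 for the 544 wider ones. The 5 highest levels of the authors' deposited table among members were at EPHA2, an ephrin receptor kinase (369), RPS6, a protein of the small ribosomal subunit (367), JUNB, an AP-1 transcription factor (361), RASA3, a GTPase-activating protein (354), and ING1, a chromatin reader (353). None of these 5 was called, and their log2 fold changes from the authors' deposited table ran from 0.23 to 0.58.

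At the limits of the rule, the narrowest members were at BID and MRS2 (2000 bases each) and SNAPIN (2001 bases), with log2 fold changes of 0.53, 0.27 and 0.34 from the authors' deposited table. Just outside lay KDELR3, ZNF141 and TUBB2A, all of 1999 bases, with 0.60, 0.44 and 0.29 from the authors' deposited table. The widest members were at SYNCRIP (1 base under the limit), PTTG1IP (7996) and ACTG1 (7992), with 0.31, 0.08 and 0.31 from the authors' deposited table. Just beyond lay STK24 (8004 bases), NBPF14 (8008) and MAT2A (8009), with 0.21, 0.29 and 0.31 from the authors' deposited table. No member or neighbour named at these limits was called.

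The table gave an adjusted p-value for 6524 members, or 99.7%, against 40.0% of all regions. The other 19 had mean levels of at most 17.6. Nearly all mid-width regions had a positive fold change in the deposited comparison. Of the 6524 members, 6409 were positive (98.2%) and 115 negative, whereas 87.3% of all 36436 regions with an adjusted p-value were positive. Other tested regions at gene starts were alike in this. The positive share was 97.1% in narrower single-gene regions, 98.7% in wider ones and 98.3% at the starts of 2 or more genes. It was 83.2% in regions at no start. The median log2 fold change of members was 0.34, a ratio of 1.27, and 90% of members lay between 0.08 and 0.69, as the 5th and 95th percentiles. The median over all 36436 regions was 0.32, and 54.3% of members lay above it. Because the authors' deposited table holds no value per library, a difference in scaling between the libraries and a change shared by nearly all promoters cannot be told apart.

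Fold changes varied less among members than among regions away from starts. The SD of the log2 fold change was 0.19 over members, below their median standard error of 0.25. It was 0.34 over the 26440 tested regions at no gene start, whose median standard error was 0.31. The authors' score, which is the ratio of the fold change to its error, had an SD of 0.69 over members and 1.09 over regions at no start. The lowest score of a tested member was -1.40. No negative member had an unadjusted p-value under 0.05, against 173 regions at no gene start. There were also 0 among narrower single-gene regions, wider ones and regions at the starts of 2 or more genes. In these groups, in that order, the SD of the log2 fold change was 0.28, 0.17 and 0.17. The SD of the score was 0.76, 0.81 and 0.62. A low spread was thus not particular to members.

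In the deposited comparison, 1.67% of all regions with an adjusted p-value were called in either direction and 1.65% were called positive. Among members 55 were called, or 0.843%, all 55 positive and 0 negative by the authors' DESeq2 test. At an unadjusted p-value under 0.05 there were 1209 members, 18.5%, beside a background of 18.4% of all regions, and all 1209 were positive. The members' share was thus below the background at the adjusted threshold and near it at the unadjusted one. Called shares were 1.02% of narrower single-gene regions (16 of 1565), 2.21% of wider ones (12 of 542), 0.220% of regions at the starts of 2 or more genes (3 of 1365) and 1.97% of regions at no start (522 of 26440).

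Within bands of mean level from 30 upwards, the share of members called was below that of regions at no start in each band. From 30 to 60 normalized counts, 11 of 1141 members (0.964%) and 1.91% of 9617 regions at no start were called. From 60 to 100 the shares were 0.825% (21 of 2545) and 3.31%, from 100 to 150 they were 0.792% (14 of 1767) and 3.93%, and from 150 upwards 0.888% (9 of 1014) and 4.44%. Below 30 there were 57 members and 0 calls.

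**Figure D2:**
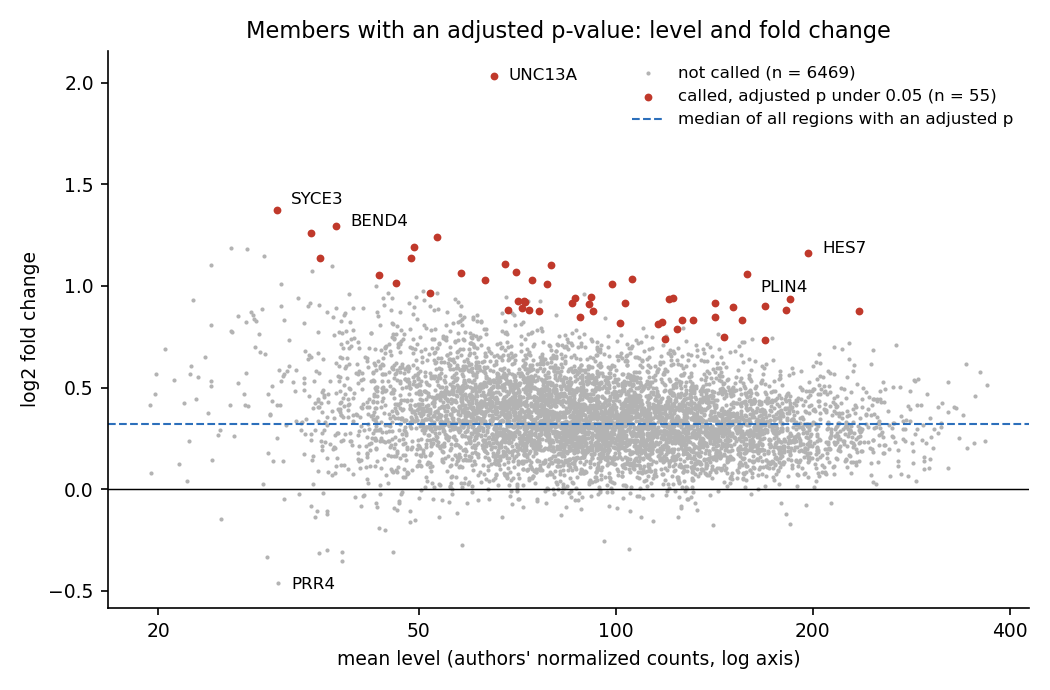
Log2 fold change against mean level (normalized counts, log axis) for the 6524 members with an adjusted p-value, with the 55 called members in red, the others in grey and the median of all tested regions (0.32) as a dashed line. Calls lie at the upper edge of 1 cloud, UNC13A stands above the rest at 2.03, and no member below 0 is called.

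When the median of 0.32 over all tested regions was subtracted from every fold change, with the authors' standard errors kept, 0.124% of all regions passed an adjusted p-value of 0.05. Among members 1 passed, the region at UNC13A. At an unadjusted p-value under 0.05 after this centring there were 91 members (1.39%), 77 above the median and 14 below it. Over all tested regions the share was 5.73% (2086), with 946 above the median and 1140 below it. Adjustment of the deposited p-values over all 91107 distinct regions, without centring, left 22 of the 55 calls.

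The region at UNC13A, which encodes a protein that primes synaptic vesicles for fusion, had the largest fold change and the smallest p-value among members. It spans 3021 bases (chromosome 19, 17685785 to 17688806, hg38), of which 2569 lie inside the gene and 452 upstream of its RefSeq start. In the authors' deposited table its mean level was 65.2 and its log2 fold change 2.03 with a standard error of 0.27, a ratio of 4.09 (unadjusted p-value 1.23e-13, adjusted p-value 2.24e-09 from DESeq2). After centring, the log2 fold change was 1.71 with an adjusted p-value of 1.57e-05. The nearest other region, 5054 bases away inside the gene, was also called from the authors' deposited table, with 1.37 ± 0.34 (standard error, adjusted p-value 0.0111). Farther regions with an adjusted value that were assigned to UNC13A had 0.62 and 0.90 from the authors' deposited table and were not called.

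STX1A and SNAP25, which encode membrane fusion proteins of the same synaptic vesicle machinery, were called as well. Their log2 fold changes from the authors' deposited table were 0.88 ± 0.25 (standard error, adjusted p-value 0.0327) and 1.03 ± 0.30 (adjusted p-value 0.0470). Neither passed after centring or after adjustment over all regions. STX1A, SNAP25 and the genes in the paragraphs on function below that are not among the largest changes or the fixed lists were picked for naming after their values were seen.

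After UNC13A, the 11 largest positive calls from the authors' deposited table lay at SYCE3, BEND4, TPBGL, FIGNL2, IGFN1, HES7, EEF1A2, GPRC5C, SH2D5, GDF15 and TMC7, with log2 fold changes from 1.37 at SYCE3 to 1.07 at TMC7. SYCE3 encodes a protein of the synaptonemal complex of meiosis (1.37 ± 0.36, standard error, adjusted p-value 0.0225 from the authors' deposited table). IGFN1 encodes a protein of skeletal muscle with immunoglobulin-like and fibronectin domains (1.19 ± 0.29, adjusted p-value 0.0104), and EEF1A2 a translation elongation factor typical of muscle and neurons (1.14 ± 0.28, adjusted p-value 0.0131), both from the authors' deposited table. The mean levels of these 11 regions, from the authors' deposited table, ran from 30.4 at SYCE3 to 197 at HES7. Of the other 10, GDF15 had the highest level (79.6), so that all but HES7 lay below the member median of 91.1.

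HES7, a transcriptional repressor of the segmentation clock, had a large change in a wide region. Its region spans 7970 bases (chromosome 17, 8120416 to 8128386) and had 1.16 ± 0.23 (standard error) at a mean level of 197, and an adjusted p-value of 0.000553, from the authors' deposited table. The nearest other region, 689 bases away, had 0.86 and was not called (adjusted p-value 0.129 from the authors' deposited table). After centring, the HES7 region had 0.84 and an adjusted p-value of 0.104.

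**Figure D3:**
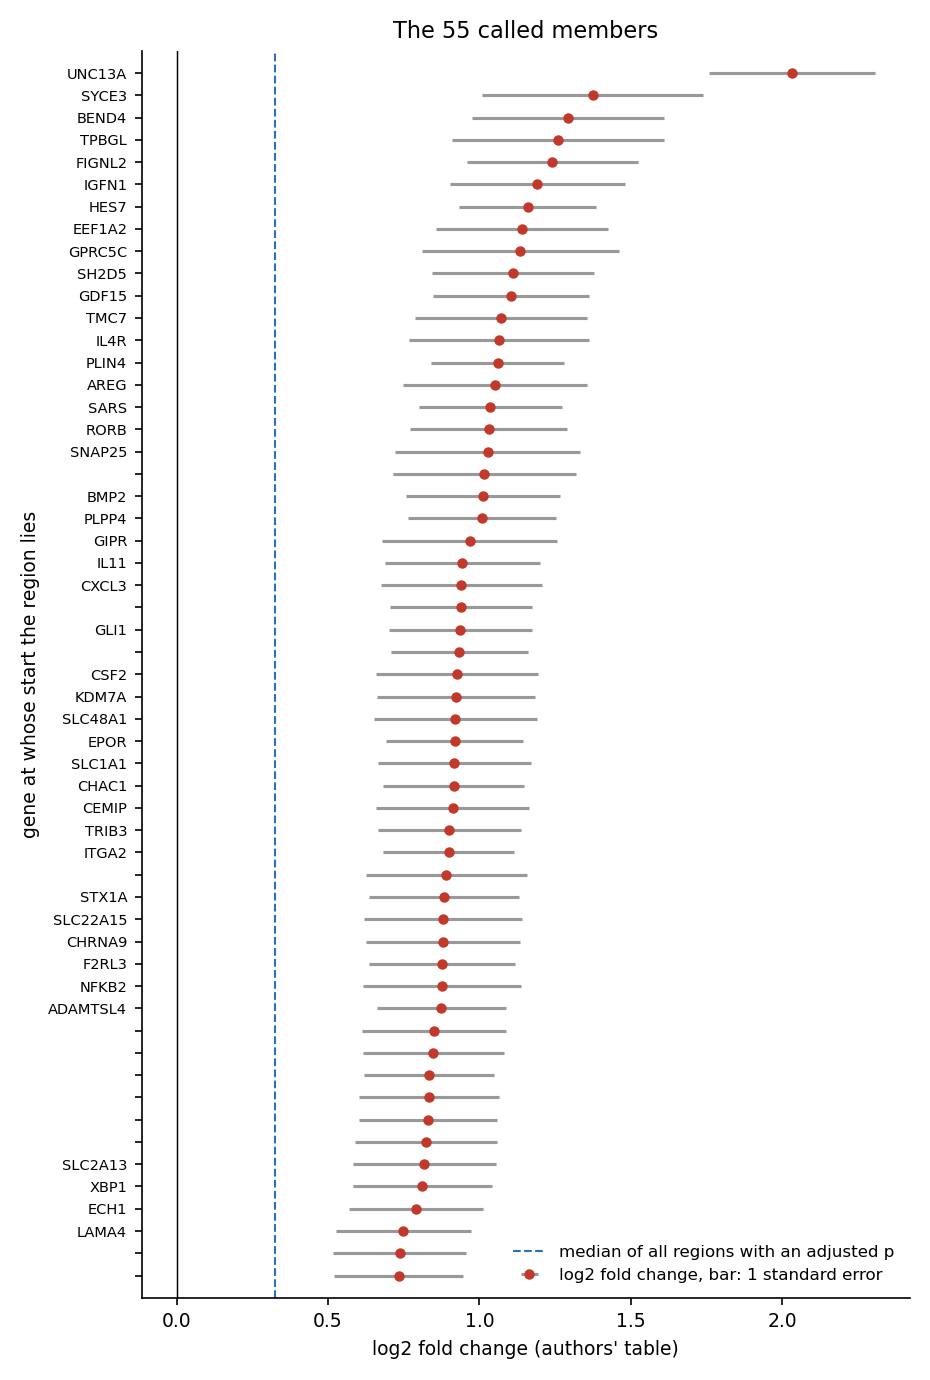
Log2 fold change of the 55 called members from the authors' deposited table, ordered by size, with bars of 1 standard error and the median of all tested regions (0.32) as a dashed line. Genes outside the naming rule and the role groups carry no label. The values run from 0.73 to 2.03 at UNC13A, and most bars of neighbouring genes overlap.

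The 55 called members had log2 fold changes from 0.73 to 2.03 with a median of 0.93, a ratio of 1.90, and 21 of them reached 1. Below UNC13A the order is not firm, since the standard errors from the authors' deposited table ran from 0.21 to 0.36 and neighbouring values differed by less. Of the 55 genes, 35 were grouped by their known roles after the calls were seen, and no enrichment was tested. The other 20 were placed in no group, though some may share a role. Only UNC13A among the 55 passed after centring. The tested members with each role were not counted. The group counts below therefore give no called share to set beside the 1.67% of all tested regions.

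Among genes of secreted signals, 6 were called. They encode the hematopoietic growth factor CSF2, the chemokine CXCL3, the interleukin-6 family cytokine IL11, the EGF receptor ligand AREG, the bone morphogenetic protein BMP2 and the stress-induced TGF-beta family member GDF15. Their log2 fold changes from the authors' deposited table lay between 0.93 at CSF2 and 1.11 at GDF15, with mean levels of 70.9 and 79.6. Under adjustment over all regions BMP2 and GDF15 passed. At 3 of these loci other regions assigned to the gene were called from the authors' deposited table, at AREG (0.85 and 1.04, on opposite sides of the start), CSF2 (1.04) and CXCL3 (1.15).

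Among receptor genes, 6 were called, with log2 fold changes from 0.88 to 1.14 from the authors' deposited table. These were IL4R, a cytokine receptor (1.06), EPOR, the erythropoietin receptor (0.92), GIPR, an incretin receptor (0.97), F2RL3, a protease-activated receptor (0.88), CHRNA9, a nicotinic acetylcholine receptor subunit (0.88), and the orphan receptor gene GPRC5C (1.14). At CHRNA9, a further pair of regions assigned to the gene was called from the authors' deposited table, with 1.45 ± 0.34 and 1.15 ± 0.31 (standard errors). EPOR passed under adjustment over all regions and the other 5 did not.

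Of the calls, 6 were grouped under transcription and chromatin, which need not be all that have this role. The 6 were HES7, GLI1, the effector of hedgehog signalling, RORB, a nuclear receptor, XBP1, a transcription factor of the unfolded protein response, NFKB2, and KDM7A, a histone demethylase. Their log2 fold changes from the authors' deposited table ran from 0.81 at XBP1 to 1.16 at HES7, and 3 of the 6 passed under adjustment over all regions.

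The regions at SARS, the gene of a seryl-tRNA synthetase, CHAC1, which degrades glutathione, and TRIB3, a stress-induced pseudokinase, had 1.04 ± 0.23, 0.92 ± 0.23 and 0.90 ± 0.24 (standard errors) from the authors' deposited table. All 3 also passed under adjustment over all regions, with adjusted p-values of 0.0119, 0.0394 and 0.0486. None of them passed after centring, where the adjusted p-values were 0.331, 0.551 and 0.607.

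In genes of lipid handling, PLIN4, a coat protein of lipid droplets, had the third smallest p-value among members. Its region of 7438 bases (chromosome 19, 4516563 to 4524001) had 1.06 ± 0.22 (standard error) at a mean level of 159 and an adjusted p-value of 0.00156 from the authors' deposited table. It reached 5515 bases upstream of the RefSeq start and 1923 bases into the gene, the reverse of the usual placement. PLPP4, a lipid phosphatase gene, had 1.01 ± 0.25, and ECH1, a mitochondrial and peroxisomal isomerase for unsaturated fatty acids, 0.79 ± 0.22 (adjusted p-value 0.0319) from the authors' deposited table.

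Among transporter genes, 4 were called, at SLC1A1, SLC2A13, SLC22A15 and SLC48A1, with 0.82 to 0.92 from the authors' deposited table, and 0 of these passed under adjustment over all regions. Genes of matrix and adhesion with a call were ITGA2, LAMA4, ADAMTSL4 and CEMIP, with 0.75 to 0.91 from the authors' deposited table. At ITGA2, an integrin subunit of collagen receptors, a region of 15915 bases farther into the locus was also called, with 0.84 ± 0.18 (standard error) from the authors' deposited table.

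Members with the most negative scores were at PRR4, a gene of a secreted proline-rich protein, B3GALT2, a galactosyltransferase, COL11A1, a fibrillar collagen, IFIT2, an interferon-induced gene, and IFRD1, a transcriptional coregulator. Their log2 fold changes from the authors' deposited table were -0.46 ± 0.33, -0.29 ± 0.22, -0.25 ± 0.23, -0.31 ± 0.28 and -0.31 ± 0.29 (standard errors). Adjusted p-values from the authors' deposited table ran from 0.406 to 0.511, so that no negative change was called at any of them. Each value, measured from 0, was little larger than its standard error. After centring, B3GALT2 had -0.62 and COL11A1 -0.58, and neither passed (adjusted p-values 0.410 and 0.540).

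Median fold changes were lower in wider regions. In tested regions at 1 gene start, grouped by width with the upper bound left out, the median log2 fold change was 0.53 at 1000 to 1500 bases, 0.48 at 1500 to 2000, 0.40 at 2000 to 2500, 0.37 at 2500 to 3000, 0.34 at 3000 to 4000 and 0.32 at 4000 to 5000. It lay between 0.29 and 0.31 in all wider bins. The share called did not follow the median, with 0.580% of 1206 members at 2000 to 2500 bases and 1.61% of 249 members at 7000 to 8000, whose median standard errors were 0.29 and 0.22.

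**Figure D4:**
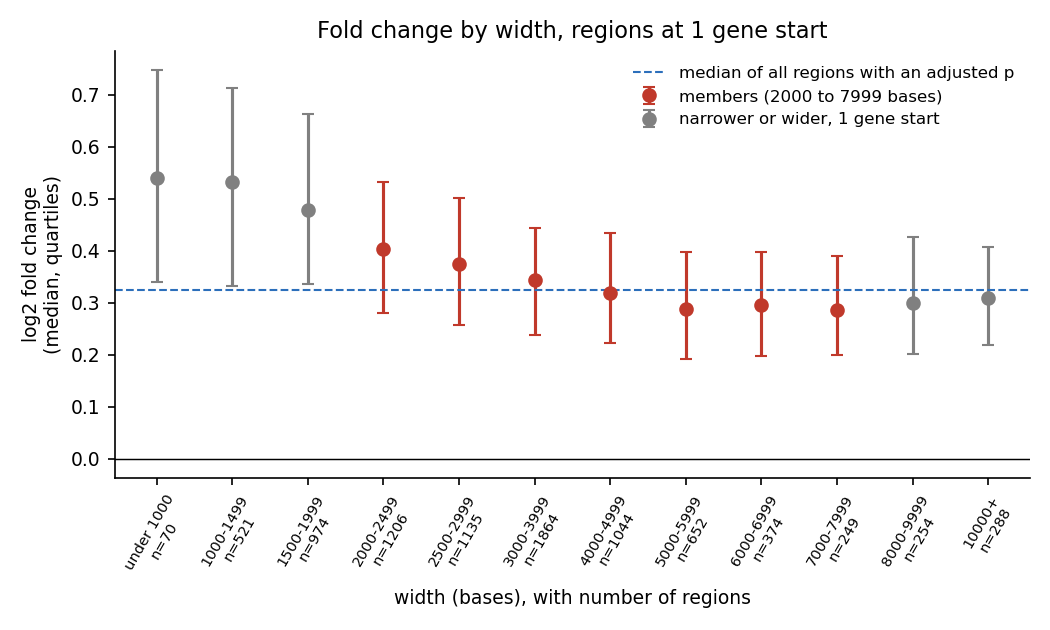
Median log2 fold change with quartiles by width in bases for regions at 1 gene start, members in red and narrower or wider regions in grey, with the median of all tested regions (0.32) dashed. Medians go from 0.53 at 1000 to 1500 bases to 0.40 in the narrowest members and 0.29 at 5000 bases and above within members.

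Because width and level move together, the trend was read within bands of level. From 60 to 100 normalized counts the medians were 0.41 below 2000 bases, 0.38 at 2000 to 3000, 0.35 at 3000 to 4000, 0.32 at 4000 to 5000 and 0.28 at 5000 to 6000. From 100 to 150 they went from 0.34 at 2000 to 3000 bases to 0.29 at 5000 to 6000, and 0.30 above. In members at 150 or more the medians stayed between 0.29 and 0.30. The Spearman correlation of fold change with width was -0.21 across 6524 members and that with level also -0.21, both as descriptions across regions of the same libraries.

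The promoters of members were rich in CG. Over the 300 bases of each RefSeq window, from 250 before to 50 after the start, the ratio of observed to expected CpG had a median of 0.86 (quartiles 0.74 and 0.97) in 5278 members and 0.58 in all 35116 windows of the table. The median GC content was 66.0% and 58.7%. A ratio under 0.5 was found in 8.03% of members (424), 46.0% of all windows, 17.0% of narrower single-gene regions and 14.7% of wider ones.

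Called members included more CpG-poor promoters than members in general, a difference that was not tested. Of the 39 with a RefSeq start inside, 10 (25.6%) had a ratio under 0.5, and the median was 0.74. Read the other way, 10 of 420 tested members under 0.5 were called (2.38%) and 29 of 4846 at 0.5 or more (0.598%), beside a background of 1.67% over all regions. With members split into 10 groups of nearly equal size by this ratio, from lowest to highest, the shares called were 2.09%, 1.14%, 0.951%, 1.33%, 0.380%, 0.380%, 0.380%, 0.188%, 0.191% and 0.380%. The lowest of the 10 groups held 11 calls and the upper 6 held 10 in all. The limit of 0.5 was chosen after the data were seen, and the 10 groups do not use it.

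The median fold change did not follow the calls in this respect. It was 0.35 in tested members under 0.5 and 0.34 in the others, while the SD of the fold change was 0.23 in the lowest of the 10 groups and between 0.16 and 0.19 in the others. Median levels lay between 83.9 and 106, lowest in the group with the least CpG. Within bands of level the CpG-poor members had the larger share called in each band from 30 upwards, with 1.90% against 0.640% from 30 to 60, 2.74% against 0.578% from 60 to 100, 3.33% against 0.436% from 100 to 150 and 1.41% against 0.930% above. These shares rest on 2, 4, 3 and 1 calls among CpG-poor members.

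**Figure D5:**
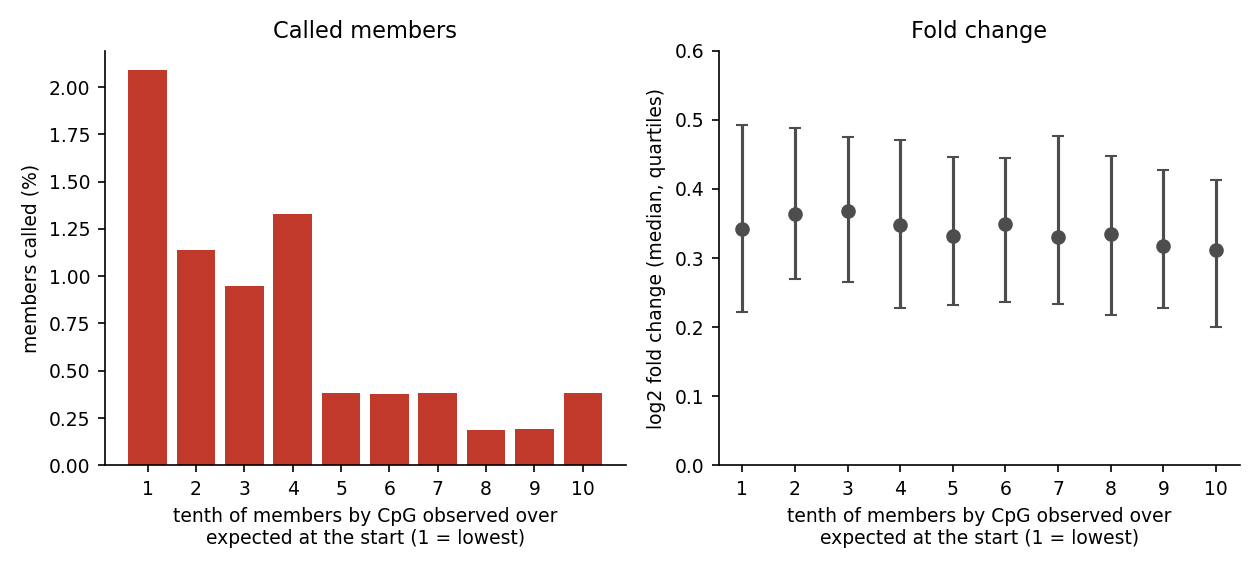
Members with an adjusted p-value and a RefSeq start inside, in 10 groups by the ratio of observed to expected CpG at the start. Bars on the left give the percent of members called, 2.09% in the lowest group and at most 0.380% in the upper 6, and points on the right give the median log2 fold change with quartiles, between 0.31 and 0.37 in all 10 groups.

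The printed sequences show this range. CSF2, with 4 CG pairs in 250 bases, and KDM7A, with 50, had nearly the same log2 fold change from the authors' deposited table, 0.93 ± 0.27 and 0.92 ± 0.26 (standard errors). PRR4 and B3GALT2, at the other end of the fold changes, were also CpG-poor, with 1 and 2 pairs.

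Short motifs were searched on both strands of the 300-base windows, and a match is only a description of the letters. None of the motifs contains another. The GC box GGGCGG was found in 74.0% of 5278 member windows and 45.0% of all windows, the CCAAT box CCAAT in 36.6% and 34.6%, and the ETS motif CCGGAAGT in 9.13% and 4.14%. The NRF1 motif GCGCATGC was in 6.12% and 3.05%, the YY1 motif AAGATGGC in 5.61% and 2.89%, the E-box CACGTG in 10.7% and 7.26%, the cyclic AMP response element TGACGTCA in 3.83% and 1.85% and the E2F motif TTTCGCGC in 1.16% and 0.515%. Rarer in members than in all windows were the TATA box TATAAA (5.02% and 11.5%), the AP-1 motif TGANTCA (3.88% and 7.71%), the sequence CATGTG (6.10% and 11.1%) and the nuclear receptor half-site AGGTCA (8.96% and 13.8%). The sterol response element TCACNCCAC was in 1.19% and 1.13%. In narrower and wider single-gene regions the GC box was also more frequent than in all windows (68.9% and 71.0%). The TATA box (5.94% and 9.22%), the AP-1 motif (5.47% and 6.22%) and the half-site (10.9% and 8.06%) were also rarer there. The ETS (4.02% and 5.76%), NRF1 (4.29% and 3.92%) and YY1 (3.63% and 3.23%) motifs lay nearer to all windows there. Motifs rich in CG are favoured by the composition of member windows, whose part in the shares was not tested.

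By motif, the median fold change of members moved little. It was 0.30 in 482 tested members with the ETS motif and 0.34 in 4784 without it, and 0.35 in 3898 with the GC box and 0.31 in 1368 without. The share called among members with a motif lay below the background of 1.67% over all regions for each of the 13 motifs. It was highest with the half-site AGGTCA (1.49% of 470 members, 7 calls), followed by the TATA box (1.13%, 3 calls), the AP-1 motif (0.976%, 2 calls) and CATGTG (0.935%, 3 calls). It was 0.770% with the GC box (30 calls) and 0.675% with the CCAAT box (13 calls), and the lowest share above 0 was 0.207% with the ETS motif (1 call). The sterol response element and the E2F motif had 0 calls, among 63 and 61 members. Members without a given motif were called in 0.658% to 0.794% of cases.

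Gene lists were read next, each as the number of its genes with a member region, their calls and their median log2 fold change, beside 1.67% called, 18.4% at an unadjusted p-value under 0.05 and a median of 0.32 over all tested regions. Counts above that median stand beside 54.3% of all members. The lists were chosen with earlier results of these data known. Of 29 genes that oxidize fatty acids or respond to PPAR, the nuclear receptors that sense fatty acids, 11 had a member, 1 was called, 6 had an unadjusted p-value under 0.05, and the median was 0.48. The call was ECH1. SLC25A20, the carnitine carrier of the inner mitochondrial membrane, had 0.85 ± 0.27 (standard error, adjusted p-value 0.0746) from the authors' deposited table. PDK4, a kinase that inactivates pyruvate dehydrogenase, had 0.83 ± 0.27 (adjusted p-value 0.0742). HADH, a hydroxyacyl-CoA dehydrogenase, had -0.01 ± 0.29 and ACADM, the medium-chain acyl-CoA dehydrogenase, 0.15 ± 0.22 from the authors' deposited table. Of the 11, 9 lay above the median of all tested regions.

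Of 20 genes of sterol and fatty acid synthesis, 13 had a member, 0 were called by the authors' DESeq2 test, 4 had an unadjusted p-value under 0.05 and the median was 0.39. The range from the authors' deposited table was 0.18 at SCD, a desaturase, to 0.61 at DHCR7, a reductase of cholesterol synthesis. Of 29 genes of the histone acetylation machinery, 18 had a member, with 0 calls, 2 at an unadjusted p-value under 0.05 and a median of 0.33. The acetyltransferase genes EP300 and CREBBP had 0.41 ± 0.22 and 0.41 ± 0.24 (standard errors), the deacetylase gene HDAC2 0.13 ± 0.28 and ACSS2, which makes acetyl-CoA from acetate, 0.64 ± 0.26 from the authors' deposited table.

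Of 28 cell cycle genes, 14 had a member, with 0 calls, 1 at an unadjusted p-value under 0.05 and a median of 0.22, and 4 of the 14 lay above the median of all tested regions. The lowest value from the authors' deposited table was 0.06 ± 0.23 at CCNA2, the cyclin A gene, and the highest 0.64 ± 0.23 at CDKN1A, the gene of the cell cycle inhibitor p21 (adjusted p-value 0.114). Of 50 genes of RNA polymerase II, general factors and Mediator, 31 had a member, with 0 calls, 2 at an unadjusted p-value under 0.05 and a median of 0.29. Of 32 translation initiation factor genes, 20 had a member, with 0 calls, 2 at an unadjusted p-value under 0.05 and a median of 0.36.

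Of 21 genes of MAPK output and feedback, 9 had a member and 9 had a wider single-gene region, with 0 calls among members, 3 at an unadjusted p-value under 0.05 and a median of 0.39. FOS, an AP-1 gene, had 0.60 ± 0.28 (standard error) and DUSP1, a phosphatase that acts on MAP kinases, 0.45 ± 0.22 from the authors' deposited table. The 9 members ran from 0.29 at ETV5 to 0.60 at FOS, and 6 lay above the median of all tested regions. Of 13 genes of the dedifferentiated melanoma state, 7 had a member, with 0 calls, 3 at an unadjusted p-value under 0.05 and a median of 0.48. SOX9, a neural crest transcription factor, had 0.74 ± 0.32 and NGFR, a neurotrophin receptor, 0.57 ± 0.27 from the authors' deposited table. The 7 members ran from 0.20 at PDGFRB to 0.74 at SOX9, and 5 lay above the median of all tested regions.

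The labelled cell type was checked on lineage markers. Of 14 melanocyte lineage genes, 3 had a member region, MITF, ERBB3 and EDNRB, with 0.26, 0.30 and 0.60 from the authors' deposited table and 0 calls (1 at an unadjusted p-value under 0.05). SOX10 had a wider region, PMEL and PAX3 lay in regions at the starts of 2 or more genes, and the other 8, MLANA, TYR, TYRP1 and DCT among them, had no region at distance 0. Of 15 markers of other cell types, 13 had no region at distance 0, while CD68 and PDGFRB had a member at levels of 55.9 and 78.9, with 0 calls among them and 0 at an unadjusted p-value under 0.05. PDGFRB also stands in the list of the dedifferentiated melanoma state above, so it does not mark another cell type alone. Each gene had at most 1 region at distance 0 of the authors' deposited table, so a gene without one can still have acetylated chromatin at another start.

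Members were spread over all autosomes and the X chromosome. Median log2 fold changes by chromosome lay between 0.31 on chromosome 2 and 0.38 on chromosome 19. Chromosome 19 held 11 of the 55 calls among 404 tested members (2.72%), with UNC13A, PLIN4, GDF15 and IL11 among them, while chromosome 2 held 0 among 430. Regions of chromosome 19 that are not members had a median of 0.43 and 2.48% called, and those of chromosome 2 had 0.32 and 1.89%.

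Neighbouring chromatin was read around each member. Another region lay within 5000 bases of 55.9% of members (3655), and the median gap to the nearest one was 3834 bases. Of the 55 called members, 21 had a nearest region with an adjusted p-value, all 21 positive and 3 called, with a median of 0.70, against 0.33 for the nearest regions of 2290 members that were not called. Across 1124 pairs at a gap of at most 5000 bases the Spearman correlation of the fold changes was 0.34, as a description of regions that share libraries and, where close, sequence fragments. The authors had assigned 271 further regions to 47 of the called genes. Of the 99 with an adjusted p-value, 94 were positive and 14 called, at 12 genes, with a median of 0.56. Over all tested regions 87.3% were positive and 1.67% called, and over those at no gene start 83.2% and 1.97%.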

How the data were processed

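H3K27ac was profiled in 4 libraries of A375 cells, grouped by the treatment in the labels. The members and the gene lists were chosen with earlier results of these data known. The submitters' processing notes name Trim Galore, cutadapt, FastQC, Bowtie2, Picard, MACS2, featureCounts, DESeq2 and bedtools 2.29.1 and the build hg38, with no roles. Whether regions were called per library or on pooled libraries is not given in the sources used here.

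The deposited table has DESeq2 column names per the file headers. The mean level is a signal normalized by the authors, and the fold change and its standard error are on the log2 scale per the file headers. The authors' score matched the quotient of fold change and standard error, with differences up to 3.38e-14. The deposited p-value matched the two-sided normal p-value of the score, with differences up to 2.89e-15, and its adjusted value was given back by Benjamini-Hochberg adjustment over the 36436 regions with one. A deposited adjusted value of 1 was read as not computed. Columns that hold 1 library and were left out numbered 0.

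The 95312 lines were merged into 91107 distinct regions with pandas 2.3.3. The fixed design allowed for edgeR on counts per library, which this table could not supply, so the authors' comparison was used as it allowed. Named members were the 12 largest positive calls, the 5 smallest p-values, the 5 most negative scores, the 5 highest and 3 lowest levels, 3 on each side of each width limit and the members of 10 gene lists. Genes outside this rule are marked in the text. A withheld item is not reported here. Symbols were matched to RefSeq (GRCh38.p14): 6196 current, 295 older and 52 unmatched. Region coordinates are as in the table, whose base numbering is not stated, so distances to starts can be off by 1 base. Centring and adjustment were tested on simulated data, with added changes larger than that of any tested member after centring. Recovery of smaller changes was not simulated. Alternatives were thresholds, filters on level, widths, the number of starts, adjustment and centring.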

Additional observations from a re-analysis of the deposited data

How the results depend on the processing

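The 55 called members became 8 at an adjusted p-value under 0.01, 21 when the log2 fold change had to reach 1 and 23 when the mean level had to reach 100, all by construction. Adjustment over all distinct regions left 22. Centring on the median of tested regions left 1, and centring on the median of all regions also 1, since centring takes away what most regions share. Counts were 44 and 70 for widths of 2500 to under 7000 and 1500 to under 10000 bases, 57 with 1 or more gene starts and 39 with a RefSeq start inside. All calls in these settings were positive. The median log2 fold change of 0.34 was 0.31 when the mean level had to reach 100, 0.33 at 2500 to under 7000 bases, 0.36 at 1500 to under 10000 bases and 0.34 (0.338 against 0.343) with 1 or more gene starts; it was 0.34 over all members and when the level had to reach 10. Of 15 called members named by the rule, 10 passed under adjustment over all distinct regions and 1, UNC13A, after centring, with 0 changes of sign among them. Of the 141 named members without a call, 63 fell on the other side of 0 after centring.

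No paired analysis was possible because values of single libraries were not at hand. Without them the edgeR and DESeq2 fits, other size factors, filters on counts and leaving out each library were not run. Depth per library is unknown. The smallest called change among members was 0.73 with a standard error of 0.21, while the median standard error of tested members was 0.25.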

Other observations

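The 19 members without an adjusted p-value were wide for their level. Their median width was 2940 bases, but their mean levels from the authors' deposited table lay between 1.25 and 17.6. Many belong to gene pairs or families with near-identical copies, as SMN1 (7.20) and SMN2 (17.6), the survival motor neuron genes, U2AF1 (8.13) and U2AF1L5 (6.77), copies of a splicing factor gene, and SPATA31D3 (1.30) and SPATA31D4 (1.51), in the authors' deposited table. The lowest level was that of HIST2H4A, a histone H4 gene (1.25 over 7147 bases). The values of regions at such copies are uncertain, since how reads that match several places were counted is not given in the sources used here. Standard errors of the log2 fold change for these 19 lay between 0.42 and 1.48, from the authors' deposited table.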
